A study of Mus musculus with 6 samples.

Results

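The genes described here are the adult globins and the genes of heme synthesis and heme breakdown in brown adipose tissue (BAT). They were chosen by symbol: Hba-a1, Hba-a2, Hbb-bs, Hbb-bt, Alas2, Alas1, Cpox, Ppox, Fech and Hmox1 each matched 1 row, which makes 10 of the 35976 rows of the count table. RNA-seq was performed on BAT from 3 wild-type (WT) and 3 sST2-KO mice, to ask how loss of soluble ST2 alters gene expression in BAT without its nerves during cold. All 6 mice had the C57BL/6J background, were 10 weeks old, underwent surgical BAT denervation, spent 7 days at 30 °C and then 8 h at 10 °C. The sST2-KO mice lack, in every cell of the body, the intron of Il1rl1 that holds the stop codon of the soluble form, and keep the membrane receptor ST2L. The WT mice were littermates from crosses of heterozygous mice. Whole tissue was used, so RNA from blood in the vessels may be part of each library. Blood content was not measured.

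Hemoglobin is a tetramer of alpha and beta globin chains, each of which holds a heme group, and its mRNA is made in red cell precursors and persists in reticulocytes. Heme is built in a chain of steps that starts and ends in mitochondria. The first step is catalyzed by Alas1 in most tissues and by Alas2 in the erythroid lineage, and Fech inserts iron in the last step. Brown adipocytes need heme for the cytochromes of their dense mitochondria, and heme that is released is cleaved by heme oxygenases, of which Hmox1 is the inducible form.

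The libraries held 8159442 to 12874809 counts. Counts of Il1rl1 were 19, 19 and 6 in WT and 55, 69 and 142 in sST2-KO, and since a count per gene adds up the soluble and the membrane form, they do not check the genotype. In WT replicate 2 the summed level of 6 hepatocyte markers was 4784 CPM, against 8.43 to 46.8 CPM in the other libraries. The 6 skeletal muscle markers summed to 1109, 19.7 and 5.92 CPM in the WT libraries and to 5864, 3075 and 13735 CPM in the knockouts, always in the order of replicates 1 to 3. The summed level of 8 brown adipocyte markers was 8273 to 15485 CPM in WT and 320 to 1898 CPM in sST2-KO. At an adjusted p under 0.05 (edgeR), 6 of the 8 were lower, against 9.10% of all genes tested. Here and below CPM is the count of a gene per 1000000 counts of its library, with the library size scaled by TMM.

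The 150 bases before the RefSeq transcription start are shown for the 5 erythroid members, because these 5 genes are the members that passed the test. The build is GRCm38.p6, and capitals mark GATA motifs (AGATAA or AGATAG, or the same with T in place of the first letter), the CACCC motif of KLF factors, the CCAAT box and the TATAAA box, on either strand. The first 4 lie on chromosomes 11 and 7, at chr11:32283522-32283671 (plus strand), chr11:32296342-32296491 (plus strand), chr7:103827929-103828078 (minus strand) and chr7:103813924-103814073 (minus strand), and Alas2 lies at chrX:150547267-150547416 (plus strand).
Hba-a1: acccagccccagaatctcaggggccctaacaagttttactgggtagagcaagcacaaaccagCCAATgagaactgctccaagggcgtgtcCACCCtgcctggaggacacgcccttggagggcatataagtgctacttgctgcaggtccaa
Hba-a2: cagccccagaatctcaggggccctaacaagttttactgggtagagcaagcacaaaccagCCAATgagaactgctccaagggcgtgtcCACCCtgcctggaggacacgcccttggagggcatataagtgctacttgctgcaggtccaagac
Hbb-bs: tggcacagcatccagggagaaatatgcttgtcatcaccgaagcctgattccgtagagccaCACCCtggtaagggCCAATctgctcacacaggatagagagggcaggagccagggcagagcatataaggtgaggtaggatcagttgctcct
Hbb-bt: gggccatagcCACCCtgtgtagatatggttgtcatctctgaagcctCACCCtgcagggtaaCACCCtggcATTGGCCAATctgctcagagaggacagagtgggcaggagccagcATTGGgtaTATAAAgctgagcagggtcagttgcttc
Alas2: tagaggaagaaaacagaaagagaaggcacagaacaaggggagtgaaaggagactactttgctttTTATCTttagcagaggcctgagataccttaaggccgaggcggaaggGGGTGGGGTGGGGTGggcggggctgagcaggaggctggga

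A RefSeq promoter was matched for 8 of the 10 members. Over the window from 250 bases before to 50 after the start, a GATA motif was found in Hba-a1, Hba-a2, Hbb-bs, Alas2 and Cpox, against 29.8% of the 32851 promoters in the table. In the alpha genes and Hbb-bs it lies farther from the start than the printed stretch, at -183, -186 and -210. CACCC was found in each matched member except Ppox, and in 57.5% of all promoters. CCAAT was found in the 4 globin genes and Ppox, and in 37.4% of all promoters, and a pair of matches in Hbb-bt adjoin each other on opposite strands. TATAAA was found in Hbb-bt and Alas2 and in 13.6% of all promoters. TGACNNNGC, the core of the antioxidant response element, was found in Hbb-bt and in 12.4% of all promoters. A match is a run of letters and does not show that a factor binds there.

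The coding sequences of the paired globin genes are shown where they differ, because counts of the 2 copies rest on such bases. The 426 coding bases of Hba-a1 and Hba-a2, counted from the start codon and without the stop codon, differ at 1 position (C381T, the Hba-a1 base first). The 441 coding bases of Hbb-bs and Hbb-bt also differ at 1 position (C417T, the Hbb-bs base first). The 60 bases that end at the difference, which is in capitals, are read from GRCm39 at chr11:32234284-32234343, chr11:32247101-32247160, chr7:103475899-103475958 and chr7:103461890-103461949, in the order of the lines.
Hba-a1: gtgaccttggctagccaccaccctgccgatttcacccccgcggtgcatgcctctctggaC
Hba-a2: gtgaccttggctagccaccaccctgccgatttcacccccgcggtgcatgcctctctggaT
Hbb-bs: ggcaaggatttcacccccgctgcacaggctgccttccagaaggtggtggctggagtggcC
Hbb-bt: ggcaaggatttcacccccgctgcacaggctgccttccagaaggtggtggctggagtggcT

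Within the canonical transcripts, which include the untranslated parts, 62.8% of the 150-base windows of Hba-a1 and 72.1% of those of Hba-a2 occur unchanged in the other copy. For Hbb-bs and Hbb-bt the shares were 55.0% and 50.6%. How reads that fit both copies were counted is not given in the sources used here, so the split within a pair is uncertain, and the sums over copies are given as well.

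In sST2-KO BAT the 4 adult globins and the erythroid heme synthase Alas2 fell, by 18.3-fold to 33.9-fold. By edgeR's quasi-likelihood test, 5 of the 10 members were lower by the rule of more than 2-fold at an adjusted p under 0.05, where 7.10% of the 14542 genes tested were lower. No member was higher by that rule (0 of 10), where 9.04% of genes were higher. The 5 lower members are not independent results. Copies of a globin pair share sequence, and all 5 ranked the WT libraries in the same order. At an unadjusted p under 0.05, 7 members were lower, against 16.7% of genes, and 1, Hmox1, was higher, against 19.6% of genes. DESeq2 called 6 members lower and 1 higher, against 1313 lower and 1666 higher of the 17890 genes that it tested. All sST2-KO values lay below all WT values in 7 of 10 members, against 19.7% of genes, and above them in 1 member, against 21.8% of genes. The median log2 fold change of the members was -2.80, and that of all genes tested was 0.03. No member lay near that median. The adult globins and Alas2 lay between -5.08 and -4.19, and the other members between -1.41 and 1.54. For single genes below, fell and rose stand for an adjusted p under 0.05 with no minimum fold change, a rule that 9.10% of all genes tested passed as lower and 10.5% as higher. In bulk tissue, fewer cells of a type and less RNA per cell cannot be told apart.

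**Figure D1:**
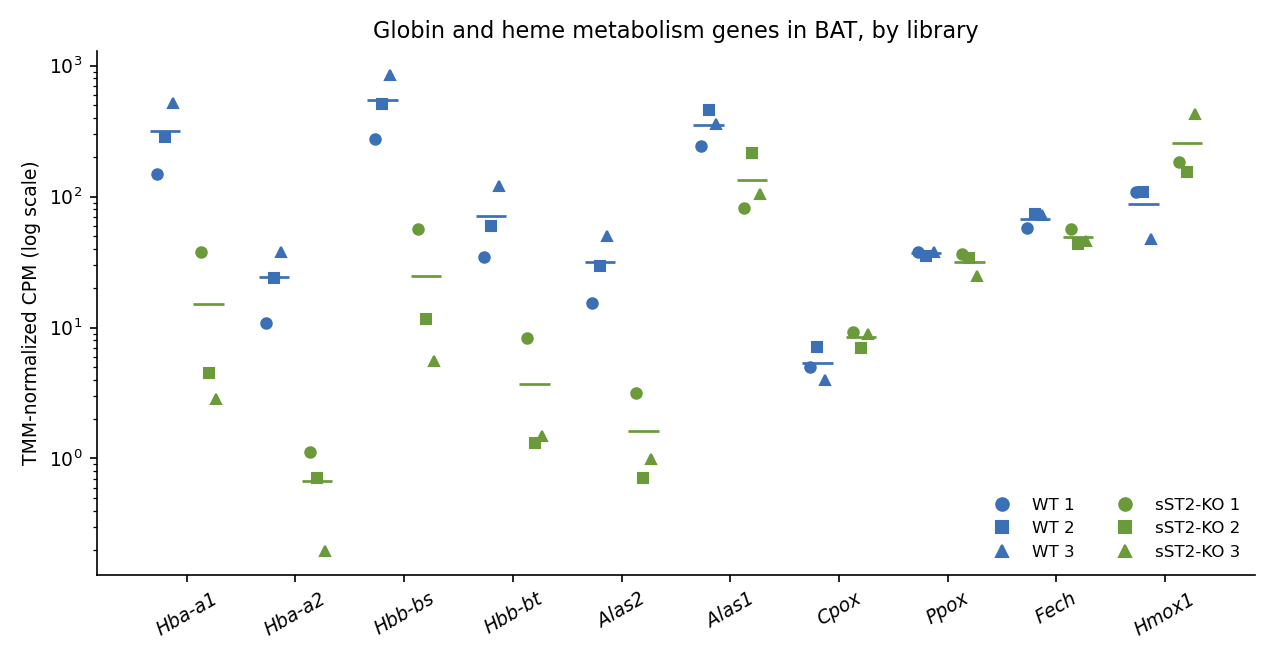
The plot shows TMM-normalized CPM of each member on a log scale in every library, with WT and sST2-KO replicates 1 to 3 as points and bars at the arithmetic group means. The globins and Alas2 separate the groups by the widest gaps, with Hbb-bs at 275 to 855 CPM in WT and 5.53 to 56.9 CPM in sST2-KO.

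Hba-a1, an alpha globin gene on chromosome 11 (GRCm39, 32233186 to 32234504, plus strand, 3 exons), had 149, 285 and 523 CPM in WT and 37.7, 4.51 and 2.86 CPM in sST2-KO. The level was 319 ± 189 CPM (SD, n = 3) in WT and 15.03 ± 19.7 CPM (SD, n = 3) in sST2-KO, a log2 fold change of -4.39 (SE 1.04, adjusted p = 0.0287, edgeR). The groups did not overlap, and sST2-KO replicate 1 stood above the other two knockouts.
Hba-a2, the second alpha gene (chromosome 11, 32246168 to 32247320, plus strand), had 10.9, 24.0 and 37.6 CPM in WT and 1.12, 0.71 and 0.20 CPM in sST2-KO. Its log2 fold change was -5.08 (SE 0.66, adjusted p = 0.0122, edgeR), and its sST2-KO values rest on 16, 6 and 2 counts.

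Hbb-bs, the major adult beta gene of this haplotype (chromosome 7, 103475730 to 103482989, minus strand), had 275, 506 and 855 CPM in WT and 56.9, 11.6 and 5.53 CPM in sST2-KO. The level was 545 ± 292 CPM (SD, n = 3) in WT and 24.7 ± 28.1 CPM (SD, n = 3) in sST2-KO, with a log2 fold change of -4.45 (SE 0.93, adjusted p = 0.0204, edgeR). Its annotated span overlaps Hbb-bh3 on the same strand.
Hbb-bt, the second adult beta gene (chromosome 7, 103461727 to 103465047, minus strand), had 34.6, 59.4 and 120 CPM in WT and 8.36, 1.31 and 1.48 CPM in sST2-KO, with a log2 fold change of -4.19 (SE 0.80, adjusted p = 0.0174, edgeR). In each of the 4 globin genes the order in WT was replicate 3, then 2, then 1, and sST2-KO replicate 1 was the highest knockout.

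With WT replicate 3 left out, the log2 fold changes of the 5 erythroid members were -4.63 to -3.61 and 0 of the 5 remained called, with adjusted p from 0.0517 to 0.0973. With WT replicate 2 left out, 3 of the 5 stayed called, and Hba-a1 (adjusted p = 0.0674) and Hbb-bs (adjusted p = 0.0533) did not. With sST2-KO replicate 2 left out, Hba-a1 was not called (adjusted p = 0.0612). With sST2-KO replicate 1 left out all 5 stayed called, and the log2 fold changes were -6.43 for Hba-a1, -5.74 for Hba-a2, -5.99 for Hbb-bs, -5.66 for Hbb-bt and -5.18 for Alas2.

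Summed over the 4 genes, adult globins reached 469, 874 and 1534 CPM in WT and 104, 18.2 and 10.1 CPM in sST2-KO. As a share of all counts of the library they made up 0.0466%, 0.0800% and 0.126% in WT and 0.0116%, 0.00188% and 0.00114% in sST2-KO. The sums of the groups did not overlap. The mean of log2 summed CPM differed by -5.00, that is 32.1-fold, with p = 0.1 in an exact two-sided permutation test, the smallest p that 3 against 3 libraries allow. The difference was -5.99 without sST2-KO replicate 1 and -4.30 without sST2-KO replicate 3.

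The composition of the globin mRNA was compared within each library, where scaling between libraries plays no part. The ratio of alpha to beta counts was 0.516, 0.546 and 0.575 in WT and 0.594, 0.404 and 0.437 in sST2-KO. The groups overlapped, with a log2 difference of -0.21 (exact two-sided permutation p = 0.4, n = 3 per group). Alpha genes held 34.1%, 35.3% and 36.5% of adult globin counts in WT. In sST2-KO replicate 1 they held 37.3%, with a 95% exact binomial (Clopper-Pearson) interval of 34.8% to 39.8%. In sST2-KO replicates 2 and 3 they held 28.8% (21.7% to 36.6%) and 30.4% (21.7% to 40.3%), from 153 and 102 globin counts. All intervals given cover counting error only.

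Hbb-bt held 11.2%, 10.5% and 12.3% of beta counts in WT and 12.8%, 10.1% and 21.1% in sST2-KO. The last value came from 15 of 71 counts and had an interval of 12.3% to 32.4%, whose lower bound lay within the interval of WT replicate 3 (11.6% to 13.02%). Hba-a2 held 6.84%, 7.78% and 6.71% of alpha counts in WT. It held 2.87% in sST2-KO replicate 1 (1.65% to 4.62%), below the WT intervals, and 13.6% and 6.45% in sST2-KO replicates 2 and 3, where 6 and 2 counts left intervals of 5.17% to 27.4% and 0.791% to 21.4%.

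**Figure D2:**
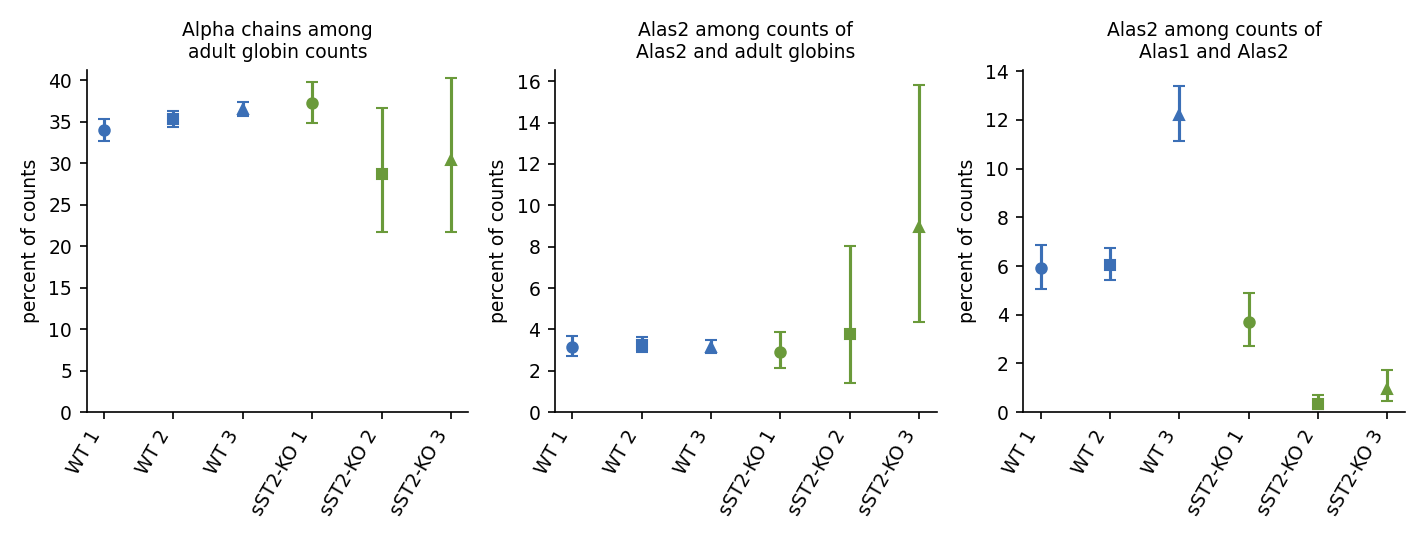
The plot shows count shares in percent within each library, with points for the libraries and bars for 95% exact binomial intervals, which cover counting error only. Alpha genes stayed between 28.8% and 37.3% of adult globin counts in all 6 libraries while the intervals of sST2-KO replicates 2 and 3 were wide.

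Alas2, the erythroid form of 5-aminolevulinate synthase (chromosome X, 149330371 to 149353634, plus strand, 11 exons), had 15.3, 29.5 and 50.1 CPM in WT and 3.14, 0.71 and 0.99 CPM in sST2-KO. The level was 31.6 ± 17.5 CPM (SD, n = 3) in WT and 1.61 ± 1.33 CPM (SD, n = 3) in sST2-KO, with a log2 fold change of -4.21 (SE 0.66, adjusted p = 0.0136, edgeR). Libraries stood in the order of Hbb-bs, apart from sST2-KO replicates 2 and 3, which held 6 and 10 counts. Alas2 made up 3.16%, 3.26% and 3.16% of the counts of Alas2 and adult globins in WT, and 2.92%, 3.77% and 8.93% in sST2-KO. The share in sST2-KO replicate 3, 10 of 112 counts, had an interval of 4.37% to 15.8% and lay above the WT intervals, which reached at most 3.67%.
The span of Alas2 overlaps Apex2, a DNA repair nuclease gene, on the opposite strand, and the library kit named in the labels does not mark strand. Apex2 also fell, from 16.9 ± 3.45 to 7.98 ± 1.82 CPM (SD, n = 3; log2 fold change -1.08, adjusted p = 0.0335, edgeR).

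Alas1, the synthase of non-erythroid tissues and the rate-limiting enzyme of their heme synthesis (chromosome 9, 106110642 to 106135734, minus strand), had 243, 459 and 360 CPM in WT and 82.0, 214 and 104 CPM in sST2-KO. The groups did not overlap, and sST2-KO replicate 2 came closest to WT. WT replicate 2, the library with high hepatocyte markers, was the highest. Without that library the log2 fold change was -1.18 (adjusted p = 0.142, edgeR). The level was 354 ± 108 CPM (SD, n = 3) in WT and 134 ± 70.9 CPM (SD, n = 3) in sST2-KO. The log2 fold change of -1.41 (SE 0.41) missed the threshold at an adjusted p of 0.0504 (edgeR), and passed it in DESeq2 (adjusted p = 0.00538), without the filter on low counts (0.0360), with at least 10 counts in every library (0.0474), with robust estimation (0.0497) and without sST2-KO replicate 2 (0.0247). It missed the threshold with RLE factors (0.0515), with total counts (0.0621), with the globins and the most abundant genes left out of the scaling (0.0522), under the replicate block (0.0644) and with any of the other 5 libraries left out (0.0542 to 0.142).
Counts of Alas1 exceeded those of Alas2 by 15.8, 15.5 and 7.18 times in WT and by 25.9, 278 and 101 times in sST2-KO. The ratio differed by 2.89 on the log2 scale (exact two-sided permutation p = 0.1, the smallest possible), and by 3.79 without sST2-KO replicate 1 and 2.08 without sST2-KO replicate 2. Alas2 itself fell by 18.5-fold and Alas1 was lower as well, so the ratio is not a result apart from the fall of Alas2. Alas2 held 5.92% to 12.2% of the counts of both synthases in WT and 0.331% to 3.68% in sST2-KO.

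Among the later enzymes of heme synthesis that are members, none passed the test. Cpox, which oxidizes coproporphyrinogen in the mitochondrial intermembrane space (chromosome 16, 58490414 to 58537999), had 5.04, 7.16 and 3.95 CPM in WT and 9.20, 7.001 and 8.99 CPM in sST2-KO, with a log2 fold change of 0.64 (SE 0.31, adjusted p = 0.175, edgeR). Its groups overlapped through WT replicate 2 and sST2-KO replicate 2.
Ppox, which forms protoporphyrin (chromosome 1, 171100969 to 171109385), had 37.5, 35.3 and 38.0 CPM in WT and 36.7, 34.1 and 24.6 CPM in sST2-KO. Its log2 fold change was -0.22 (SE 0.20, adjusted p = 0.464, edgeR), and scaling by total counts turned it to 0.041.
Fech, the ferrochelatase, had 57.3, 73.2 and 71.8 CPM in WT and 56.7, 43.7 and 46.1 CPM in sST2-KO. The groups did not overlap, but WT replicate 1 and sST2-KO replicate 1 were within 1 CPM of each other. The log2 fold change was -0.46 (SE 0.19, adjusted p = 0.119, edgeR).

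Summed counts of Alas1, Cpox, Ppox and Fech were 0.731, 0.657 and 0.308 times those of the adult globins in WT, and 1.77, 16.5 and 18.3 times in sST2-KO. The difference was 3.94 on the log2 scale and the groups did not overlap (exact two-sided permutation p = 0.1, the smallest possible). It was 5.03 without sST2-KO replicate 1 and 3.35 without sST2-KO replicate 3. The globin sum alone differed by 32.1-fold, so this ratio is not a separate result about heme synthesis. Alas1, whose sST2-KO values all lay below its WT values, held more counts than Cpox, Ppox or Fech in every library.

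Of the whole synthesis pathway of 9 genes, 4 fell, where 9.10% of all genes tested did, and the median log2 fold change of the 9 was -0.75, against 0.03 for all genes tested. Besides Alas2 these included enzymes of the cytosolic steps. Alad, which joins aminolevulinate into porphobilinogen, fell from 54.7 ± 11.9 to 24.4 ± 9.17 CPM (SD, n = 3; log2 fold change -1.17, adjusted p = 0.0404, edgeR). Urod, which decarboxylates uroporphyrinogen, fell from 70.2 ± 16.8 to 29.6 ± 6.01 CPM (log2 fold change -1.24, adjusted p = 0.0182). Uros, which acts just before Urod in the chain, had a log2 fold change of -0.56 (adjusted p = 0.117).

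**Figure D3:**
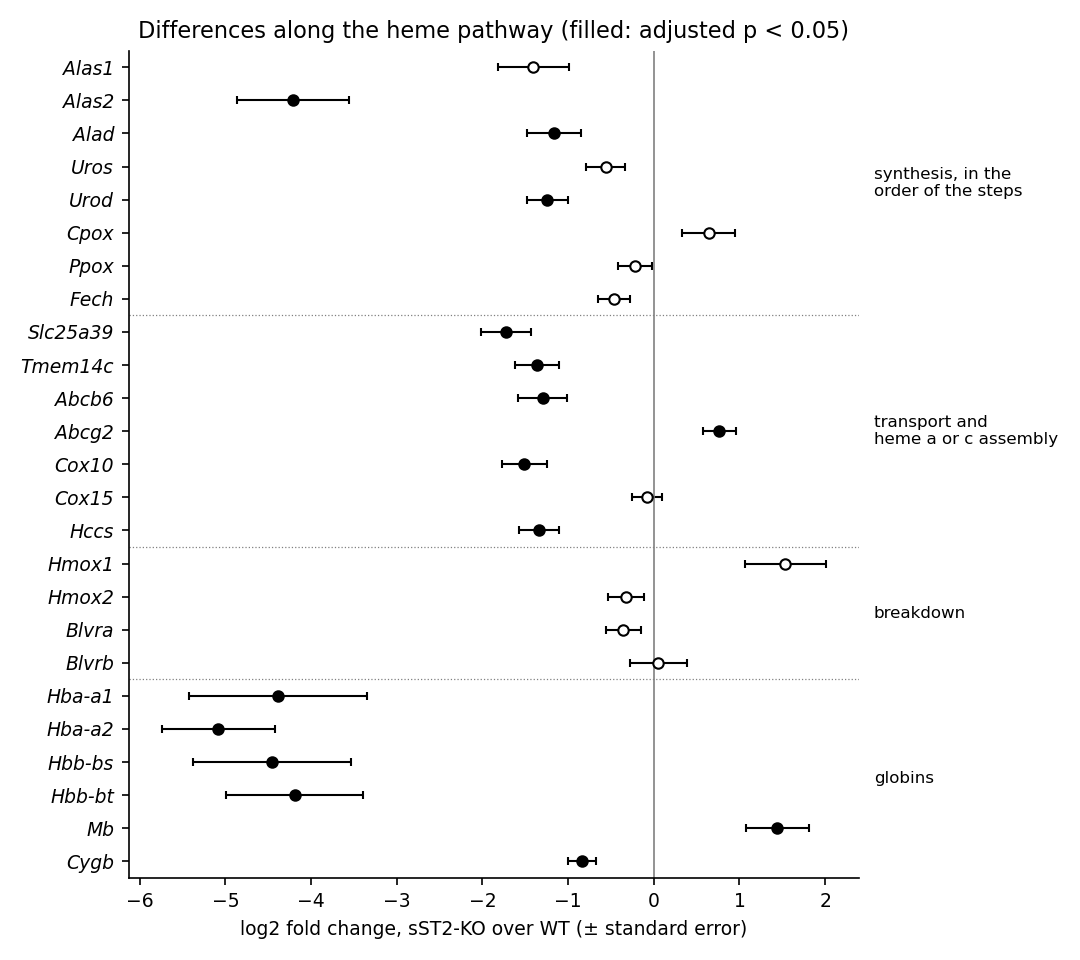
The plot shows log2 fold changes of sST2-KO over WT with standard errors, from edgeR, for genes of heme synthesis, transport, heme a and c assembly and heme breakdown and for globins that the text names, with filled points at an adjusted p under 0.05. The adult globins and Alas2 lie between -5.08 and -4.19, and the other filled genes of synthesis and assembly between -1.51 and -1.17.

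The wider pathway lists held 58 genes that are not members, of which 50 were tested. Of these, 12 fell and 3 rose, against 9.10% and 10.5% of all genes, and 10 and 2 of them also passed a fold change of 2, against 7.10% and 9.04%. Their median log2 fold change was -0.30. With WT replicate 3 left out, none of the 50 passed, neither lower (0) nor higher (0), and with WT replicate 2 left out 4 were lower and 0 higher.
In the list of mitochondrial iron and heme transport, 16 of 17 genes were tested, 4 fell and 1 rose. Slc25a39, the mitochondrial glutathione carrier, fell from 276 ± 79.7 to 83.5 ± 17.1 CPM (SD, n = 3; log2 fold change -1.72, adjusted p = 0.0150, edgeR). Tmem14c, which is needed for porphyrin import into mitochondria, fell from 175 ± 49.9 to 68.1 ± 10.4 CPM (log2 fold change -1.36, adjusted p = 0.0168). Abcb6, a porphyrin transporter, fell from 25.1 ± 3.81 to 10.2 ± 3.42 CPM (log2 fold change -1.30, adjusted p = 0.0231). Abcg2, an exporter of porphyrins at the plasma membrane, rose from 22.6 ± 4.19 to 38.5 ± 3.73 CPM (log2 fold change 0.77, adjusted p = 0.0350). Slc25a37, the mitoferrin of red cell precursors, had 16.9 ± 2.82 CPM in WT and 39.2 ± 23.2 CPM in sST2-KO (adjusted p = 0.0721).

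Of the 3 genes that turn heme into the heme of cytochromes, 2 fell, where 9.10% of all genes tested did. Cox10, which makes heme o on the way to heme a, fell from 44.4 ± 12.4 to 15.6 ± 3.03 CPM (SD, n = 3; log2 fold change -1.51, adjusted p = 0.0152, edgeR). Hccs, which attaches heme to cytochrome c, fell from 66.9 ± 3.66 to 26.5 ± 7.39 CPM (log2 fold change -1.34, adjusted p = 0.0156). Cox15, the third gene of this list, had 29.8 ± 4.26 and 28.2 ± 1.63 CPM (log2 fold change -0.08, adjusted p = 0.782).
Of 8 regulators of heme genes, 1 fell and 1 rose, close to the shares of all genes tested, 9.10% and 10.5%. Ppargc1a, a coactivator that induces Alas1 and mitochondrial genes, had 150, 252 and 171 CPM in WT and 20.4, 59.2 and 45.1 CPM in sST2-KO (log2 fold change -2.20, adjusted p = 0.0167, edgeR). Bach1, a heme-binding repressor of Hmox1, had 35.9, 19.7 and 17.3 CPM in WT and 52.3, 53.4 and 66.1 CPM in sST2-KO (log2 fold change 1.23, adjusted p = 0.0292). Both separated the groups without overlap. Lonp1, a mitochondrial protease, and Clpx, the unfoldase partner of the Clpp protease, both of which act on Alas1, had log2 fold changes of -1.05 (adjusted p = 0.0604) and -0.98 (adjusted p = 0.0862).

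Hmox1, which cleaves heme to biliverdin, iron and carbon monoxide (chromosome 8, 75820241 to 75827217, plus strand), had 108, 108 and 47.6 CPM in WT and 183, 155 and 427 CPM in sST2-KO. The groups did not overlap, WT replicate 3 was the lowest and sST2-KO replicate 3 the highest. The level was 87.9 ± 34.9 CPM (SD, n = 3) in WT and 255 ± 150 CPM (SD, n = 3) in sST2-KO. The log2 fold change of 1.54 (SE 0.48) missed the threshold at an adjusted p of 0.0590 (edgeR), and passed it in DESeq2 (adjusted p = 0.00828), with scaling by total counts (0.0465) and without the filter on low counts (0.0386). In the other settings it missed the threshold, with adjusted p up to 0.177. Leaving out sST2-KO replicate 3 gave a log2 fold change of 0.93.
Summed levels of 7 macrophage markers were 986, 870 and 720 CPM in WT and 1270, 1240 and 5509 CPM in sST2-KO, with the same libraries at the ends as for Hmox1. Of the 7 markers, 1, Lyz2, rose (log2 fold change 2.34, adjusted p = 0.0495, edgeR), where 10.5% of all genes tested did. The part of the macrophage markers in the level of Hmox1 was not tested.

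None of the other 3 genes of heme breakdown passed the test. Hmox2, the constitutive heme oxygenase, and the biliverdin reductases Blvra and Blvrb had log2 fold changes of -0.32, -0.36 and 0.05, with adjusted p of 0.313, 0.246 and 0.927 (edgeR). Of the 4 scavengers of hemoglobin and heme, 0 passed by edgeR. At an unadjusted p under 0.05, 2 of them, Hpx and Cd163, were lower, where 16.7% of all genes tested were. Cd163, the hemoglobin-haptoglobin receptor of macrophages, had 38.6 ± 23.5 CPM in WT and 16.1 ± 6.75 CPM in sST2-KO (SD, n = 3; adjusted p = 0.127). Hpx, the heme-binding plasma protein hemopexin, had 1079 CPM in WT replicate 2, the library with high hepatocyte markers, and 1.66 to 18.2 CPM elsewhere.
Of 10 genes of iron handling, 1 fell, where 9.10% of all genes tested did. Ncoa4, the receptor that delivers ferritin for degradation, fell from 57.6 ± 5.84 to 27.4 ± 5.98 CPM (log2 fold change -1.07, adjusted p = 0.0186, edgeR). The ferritin heavy chain Fth1 had 2585 ± 610 and 3942 ± 1747 CPM (adjusted p = 0.351), and the transferrin receptor Tfrc 42.9 ± 3.48 and 35.3 ± 5.86 CPM (adjusted p = 0.312).

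Erythroid genes other than globins and Alas2 were near the limit of detection. Of 16 erythroid markers, 15 had a row, and their summed counts were 67, 48 and 81 in WT and 71, 23 and 40 in sST2-KO, or 4.52 to 9.99 CPM and 2.73 to 4.95 CPM. Only Car1 and Tspan33 were abundant enough to be tested, and 0 passed by edgeR, with 0 at an unadjusted p under 0.05. Among the defining markers, Slc4a1 was at 0 counts in sST2-KO replicate 2, and Klf1 in WT replicate 1 and sST2-KO replicate 3. Adult globin counts were 74.5, 191 and 153 times the erythroid marker counts in WT and 20.9, 6.53 and 2.53 times in sST2-KO, a log2 difference of -4.21 with no overlap (exact two-sided permutation p = 0.1, the smallest possible). The log2 difference was -4.99 without sST2-KO replicate 1 and -3.47 without sST2-KO replicate 3. Of the marker counts, Tspan33 alone held 17, 17 and 8 in WT and 23, 3 and 21 in sST2-KO. Marker sums this small and this dependent on single genes are a poor measure of red cell content. Whether globins fell more than red cell content was therefore not tested by this ratio.
The summed brown adipocyte markers were lower in sST2-KO, as were the globins. In WT their sums were 8273, 10108 and 15485 CPM, in the same order of libraries as the globin sums of 469, 874 and 1534 CPM. In sST2-KO the order was another one. Ucp1, the uncoupling protein, had 5229, 6461 and 10522 CPM in WT and 160, 1041 and 153 CPM in sST2-KO, while the globin sum was 104, 18.2 and 10.1 CPM. The part of cell composition in the globin difference was not tested.

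**Figure D4:**
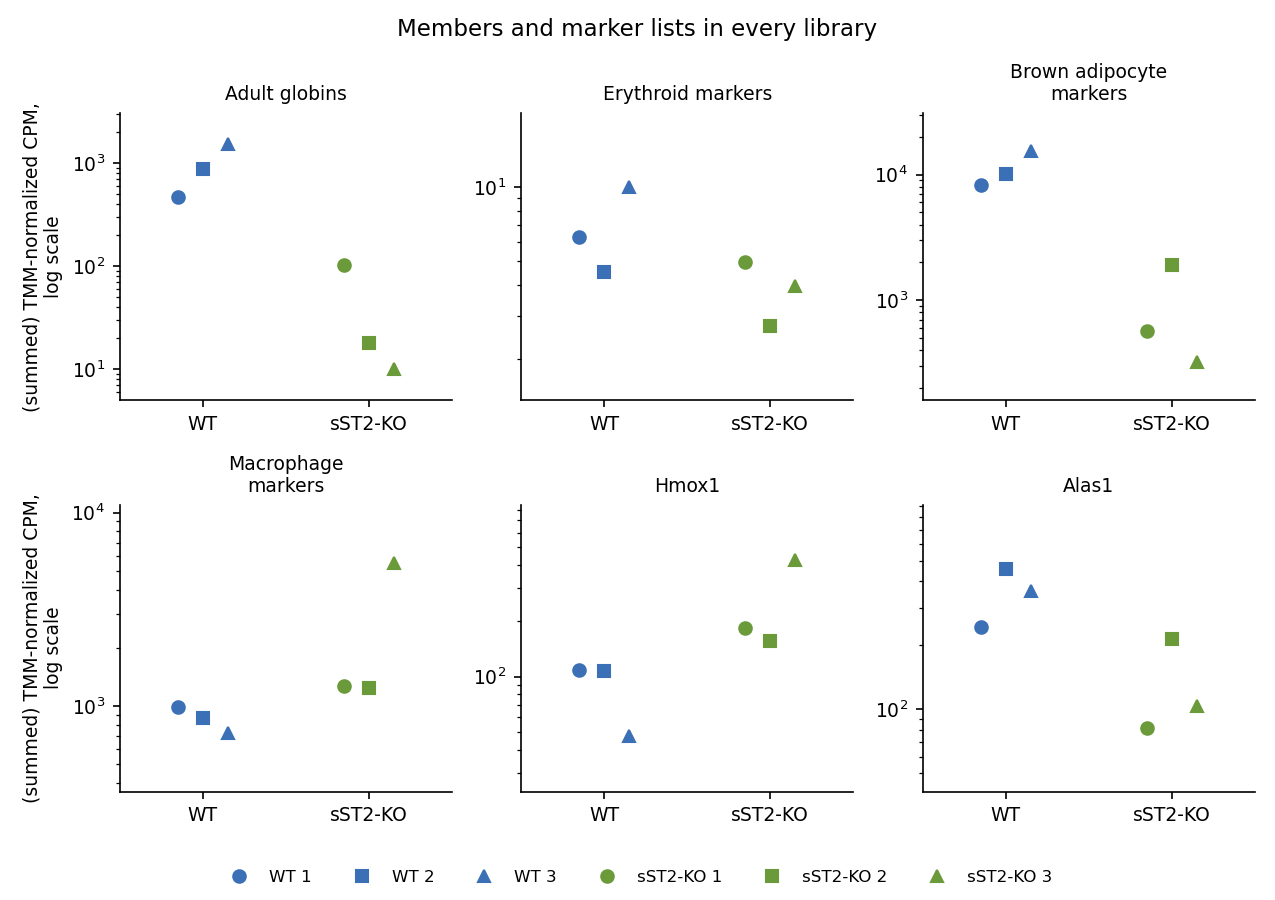
The plot shows summed TMM-normalized CPM on log scales in every library for the adult globins and the erythroid, brown adipocyte and macrophage marker lists, and single values for Hmox1 and Alas1. Globin sums run from 469 to 1534 CPM in WT and 10.1 to 104 CPM in sST2-KO. Erythroid marker sums overlap at 4.52 to 9.99 and 2.73 to 4.95 CPM, and rest on only 23 to 81 counts per library.

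Globins other than the 4 adult genes had other patterns. The embryonic genes Hba-x, Hbb-y, Hbb-bh1 and Hbb-bh2 were at 0 counts in all 6 libraries. A count of 0 leaves an expected count of up to about 3 per library possible at 95% confidence. Mb, the myoglobin of muscle and brown fat, rose from 57.6 ± 24.5 to 157 ± 46.8 CPM (SD, n = 3; log2 fold change 1.44, adjusted p = 0.0359, edgeR), with no overlap. All 6 skeletal muscle markers were also higher in every sST2-KO library than in any WT library, where 21.8% of all genes tested were. By edgeR 0 of the 6 passed the test, and 4 were higher at an unadjusted p under 0.05, against 19.6% of genes. The part of these markers in the level of Mb was not tested. Cygb, the cytoglobin of fibroblast-like cells, fell from 50.2 ± 5.25 to 28.1 ± 1.20 CPM (log2 fold change -0.84, adjusted p = 0.0178), by 1.79-fold and so not past the 2-fold minimum.

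Levels were compared between members only per kilobase of the canonical transcript. In WT the order of mean CPM per kilobase was Hbb-bs (821 ± 440), Hba-a1 (432 ± 256), Alas1 (104 ± 31.6), Hbb-bt (101 ± 62.1), Hmox1 (55.7 ± 22.1), Hba-a2 (37.4 ± 20.6), Alas2 (15.5 ± 8.58), Ppox (13.1 ± 0.497), Fech (10.4 ± 1.36) and Cpox (1.61 ± 0.490), each with SD and n = 3. Neighbours in this order overlapped in range except at the steps from Hba-a1 to Alas1, from Ppox to Fech and from Fech to Cpox.
In sST2-KO the order was led by Hmox1 (162 ± 94.8), followed by Alas1 (39.1 ± 20.8), Hbb-bs (37.2 ± 42.3) and Hba-a1 (20.4 ± 26.6), and ended with Hba-a2 (1.04 ± 0.711) and Alas2 (0.791 ± 0.652 CPM per kilobase). Only the steps from Hmox1 to Alas1 and from Cpox to Hba-a2 were free of overlap.

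The genes whose log2 CPM was most like that of a member over the 6 libraries are given as a description. They were picked for the highest r among many genes, and genes that differ between the 2 groups also resemble each other. For Hbb-bs they were Gabarapl2 and Fbxo9 (Pearson r = 0.997 each) and Pex19, Tbc1d20 and Nop10 (r = 0.996 each). For Alas1 they were Pcsk7 (r = 0.998), Hps4 and Rnf25 (0.993 each) and A930028N01Rik and Lcmt1 (0.991 each), with adjusted p from 0.0927 to 0.407 (edgeR). For Hmox1 they were Tcea3 (r = 0.996), Cfb and Atf1 (0.994 each), Dynlt1f (0.993) and Tcirg1 (0.992).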

How the data were processed

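RNA from BAT of 3 WT and 3 sST2-KO mice was selected for poly(A) and sequenced as paired 150-base reads with a kit that does not mark strand. The submitters' processing notes name FastQC 0.12.1, HISAT2 2.2.1 and the genome build mm39, and the paper names htseq-count. The authors deposited raw counts per gene symbol, without normalization. The version, annotation and strand setting of htseq-count, and its handling of reads that fit several genes, are not given in the sources used here. The study gives 3 mice per group. Libraries held 8159442 to 12874809 counts. Of the table's columns with values per sample, 0 went unused. In 27 rows the symbol was a date, and these rows stayed in the tests. A chi-square test of the counts within each group gave 36.6 to 104 per degree of freedom, far above sampling noise, and no library was counted as a duplicate.

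Genes were kept by filterByExpr (14542), scaled by TMM and tested with edgeR 4.0.16 in R 4.3.3 (glmQLFit and glmQLFTest, sST2-KO against WT, no covariate, Benjamini-Hochberg over all genes tested). All 10 members passed the filter. The standard error is the log2 fold change divided by the square root of F. A call needed more than a 2-fold change at an adjusted p under 0.05. The fold minimum follows the study's methods, which use DESeq2, and the adjusted p was chosen here. Ratios and sums were tested with exact two-sided permutations over libraries, with 0.5 added to each count or sum where a count was small. Scripts were tested on simulated data. Alternatives were total counts, RLE factors, scaling without the adult globins and the 10 most abundant other genes, DESeq2 1.42.0, no filter, at least 10 counts in every library, a replicate block, robust estimation, no minimum fold change and each library left out. Sums and ratios had alternatives of scaling, test scale, copies counted and length.

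The members, pathway lists and marker lists were chosen with earlier results of these data known. The genes named are the 10 members, each list gene past an adjusted p of 0.05, genes that complete a role, Il1rl1 and the 5 genes most like Hbb-bs, Alas1 and Hmox1 by Pearson r, among genes whose mean log2 CPM was 2 or more. Apex2 was named after its values were seen. Flvcr1 and Flvcr2 were matched as Mfsd7b and Mfsd7c, and Ahsp was not analysed here. Some genes that the rule names are counted in their lists but not reported here. Gene positions, exons and transcript lengths come from GENCODE in GRCm39, and promoters from RefSeq in GRCm38.p6. The replicate numbers were checked for pairing by the correlation of deviations from the group means.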

Additional observations from a re-analysis of the deposited data

How the results depend on the processing

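The count of lower members, 5, was 0 with the replicate number as a block and ran from 0 to 5 when 1 library was left out, with 3 without WT replicate 2 and 0 without WT replicate 3. The cause was not tested. The labels give no sign of pairing beyond the numbers, and deviations of same-numbered libraries from their group means had r = -0.06, 0.21 and -0.31. With 3 libraries per group these values cannot tell whether same-numbered mice shared a litter or a day. Whether the block is the right model is therefore not known. Under the block 6 members had an unadjusted p under 0.05, and over all genes 0 were called, against 1033 lower and 1315 higher.

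The count of higher members, 0, became 1 in DESeq2, with total counts and with no filter, through Hmox1 each time. Over all genes, DESeq2 called 1666 of 17890 higher, and the fit with no filter 1484 of 24599. Scaling by total counts turned Ppox from -0.22 to 0.041 (adjusted p = 0.899). It moved the median of all genes from 0.03 to 0.29, and the calls over all genes to 691 lower and 1840 higher. Without WT replicate 3 the calls over all genes were 22 lower and 36 higher, and without WT replicate 2 they were 480 lower and 391 higher. Pathway genes past the adjusted p, 12 lower and 3 higher, ran from 0 to 12 and from 0 to 2 when 1 library was left out. Over 7 other settings, 60 of 68 member values kept their direction and side of the threshold, 7 passed it newly and 1 reversed. With at least 10 counts in every library Hba-a2 and Alas2 were not tested. The 6 and 10 counts of Alas2 and the 16, 6 and 2 counts of Hba-a2 in sST2-KO limit the precision of their shares.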

Other observations

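Markers of other blood and vessel cells were summed in each library. The summed level of 6 neutrophil markers was 37.8, 31.7 and 134 CPM in WT and 484, 146 and 719 CPM in sST2-KO. By edgeR 3 of the 6, Csf3r, Cxcr2 and Mmp9, rose, where 10.5% of all genes tested rose and 9.10% fell. Csf3r, the receptor of granulocyte colony-stimulating factor, had 9.53 ± 1.26 CPM in WT and 63.9 ± 36.9 CPM in sST2-KO (SD, n = 3; log2 fold change 2.75, adjusted p = 0.0136). Platelet markers summed to 22.4 to 30.4 CPM in WT and 25.5 to 75.9 CPM in sST2-KO, and of 3 tested 0 passed, with 0 at an unadjusted p under 0.05. Endothelial markers summed to 1036 to 1247 CPM in WT and 976 to 1609 CPM in sST2-KO. Of these 6, Kdr, a receptor of vascular endothelial growth factor, fell (log2 fold change -1.23, adjusted p = 0.0390), and Emcn, a sialomucin of capillaries and veins, rose (log2 fold change 1.28, adjusted p = 0.0365).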
